A study of Mus musculus with 18 samples.

Results

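The genes described here are 10 transcription factors that pattern the embryo outside the Hox clusters and that are known from work on the identity of fat depots: Tbx15, Tbx18, Lhx8, Zic1, Wt1, Tcf21, Shox2, En1, Irx3 and Irx5. They were taken by symbol, 1 row each, from the 54347 genes of a mouse count table, and 18728 of those genes, with all 10 among them, passed a filter on low counts. Tcf21 and Wt1 passed it only through epididymal fat and Zic1 only through brown fat, so their differences from the other depots are a description of where they were counted. Polyadenylated RNA was sequenced from 3 depots of the same 6 mice. These were the brown fat between the shoulder blades (iBAT, interscapular brown adipose tissue), the inguinal fat under the skin of the flank (iWAT, a white depot) and the epididymal fat inside the abdomen (eWAT, also white). The mice were C57BL/6N and 12 weeks old, on chow. Of these, 3 were wild type (wt) and 3 were homozygous for ΔGm15551 (ko), a CRISPR/Cas9 deletion of the first exon of the adipose lncRNA Gm15551. The deletion was carried by every cell of the body, and the study made it as 1 mouse line, so each tissue and genotype group held 3 libraries, and each library was 1 depot of 1 mouse.

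Developmental transcription factors of this kind bind DNA through T-box, homeobox, zinc finger or basic helix-loop-helix domains, and lay out where tissues form along the body. Adipose progenitors keep part of that positional program into adult life, so depots that look alike can be told apart by it. Classical brown fat arises from Engrailed 1-expressing cells of the dermomyotome, while much of the visceral white fat is tied to the Wt1-expressing mesothelial lineage of the body cavity.

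The 18 libraries held between 14997901 and 34389586 counts each. Levels are given below as CPM, counts set against the TMM-scaled total of their library, and 3 counts corresponded to between 0.0728 and 0.235 CPM, depending on the library. Gm15551 itself was counted 40 to 68 times in wild type iBAT, 59 to 316 times in iWAT and 181 to 237 times in eWAT, against at most 4 counts in any knockout library, so its level followed the labels. Summed brown fat markers, Ucp1 among them, lay between 11595 and 19636 CPM in iBAT and at no more than 660 CPM elsewhere, and the adipocyte markers were abundant in all 3 depots. In 4 libraries markers of a neighbouring tissue stood out most, namely skeletal muscle in iWAT ko 1, lymph node in iWAT wt 3 and iWAT ko 2, and epididymis in eWAT ko 3. Epididymis markers, at 5346 CPM in eWAT ko 3, also summed to 35.5 CPM in eWAT wt 1, against 0.485 to 3.51 CPM in the other eWAT libraries. Fits described below as without the 4 libraries with neighbouring tissue keep eWAT wt 1. In bulk tissue, fewer cells of a type and less RNA per cell cannot be told apart.

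Each depot had its own combination of these factors. Wt1 and Tcf21 were counted almost only in eWAT, Zic1 stood high in iBAT, and Tbx15, Shox2 and En1 were highest in iWAT, lower in iBAT and lowest in eWAT. Lhx8 was shared by iBAT and iWAT and nearly missing from eWAT. By the largest fitted difference of each gene between depots, Tbx18, Irx3 and Irx5 differed the least. Levels are compared between genes per kb of exon: by this measure the highest mean in iBAT was that of Irx3 at 2.97 CPM per kb, in iWAT that of Shox2 at 6.51 and Tbx15 at 5.81, and in eWAT those of Tcf21 at 1.83, Irx3 at 1.83 and Wt1 at 1.74.

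**Figure D1:**
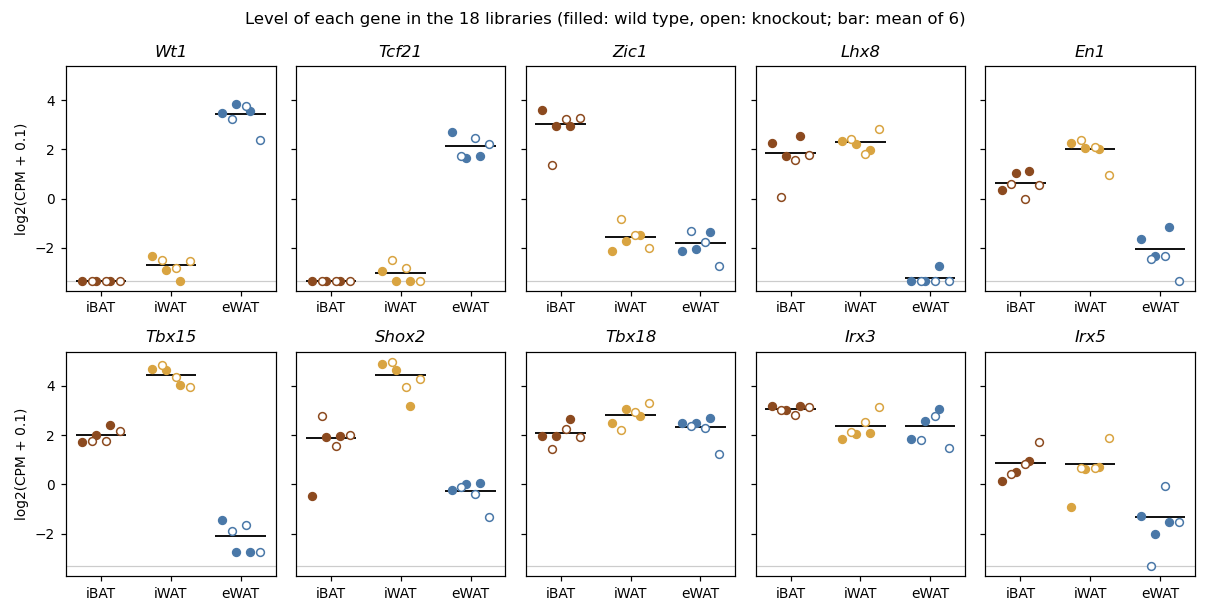
Each panel shows 1 gene, with log2(CPM + 0.1) on the vertical axis and the 6 libraries of each tissue side by side (filled points wild type, open points knockout, bar the log2 of the mean CPM). Wt1 and Tcf21 rise above the low end of the axis in eWAT alone, Zic1 in iBAT, and Tbx15 falls in 3 separate bands, while Tbx18 and Irx3 overlap between tissues.

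In edgeR's quasi-likelihood test over all libraries, with p-values adjusted over the 18728 tested genes, 7 of the 10 genes differed between iBAT and iWAT (2 higher in iBAT, 5 lower), beside 54.3% of all tested genes (24% higher, 30.3% lower). The 5 include Wt1, which had 0 counts in iBAT and 0 to 3 in iWAT, too few to measure in either depot. Between iBAT and eWAT 9 of 10 differed (7 higher in iBAT, 2 lower), beside 54.6% of all genes (24.4% and 30.2%). Between iWAT and eWAT 7 of 10 differed (5 higher in iWAT, 2 lower), beside 10.2% of all genes (5.7% and 4.5%). The median log2 difference of the 10 genes was -1.12, 2.37 and 1.46 in these contrasts, against -0.14, -0.17 and 0.01 over all tested genes. With genes at 3 counts or fewer in a tissue set to the bound that 3 counts allow, the first of these medians became -0.28, and the others stayed at 2.37 and 1.46. Without the 4 libraries with neighbouring tissue, 6, 8 and 7 genes differed. Calls of Wt1, Tcf21 and Zic1, which passed the filter only through the depot where they were high, are among those counted.

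Wt1, a zinc finger factor of mesothelium and visceral fat progenitors, lies at chr2:105126529-105173616 on the plus strand (GRCm38). It had 0 counts in all 6 iBAT libraries and 0 to 3 counts in iWAT, while its level in eWAT ran from 5.05 to 14.4 CPM with a median of 11.4. The eWAT libraries thus lay apart from those of both other depots. The mean of 10.8 CPM ± 3.33 (SD, n = 6) in eWAT was at least 52.8-fold that in iBAT, counted against 3 counts per library (adjusted p = 6.77e-08). Against iWAT, 1654 counts over the eWAT libraries stood beside 9, a ratio of 206 after scaling (95% interval 108 to 452, covering counting error only, adjusted p = 6.25e-06). Between iBAT and iWAT, with at most 3 counts in any of these 12 libraries, Wt1 had no measurable level to compare, and its edgeR call there (adjusted p = 0.0130, against 0.0646 in DESeq2 and 0.426 in limma voom) is not read as a difference.

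Tcf21, a basic helix-loop-helix factor of visceral mesenchyme, lies at chr10:22817281-22820174 on the minus strand and followed the same order. It had 0 counts in every iBAT library and 0 to 2 in iWAT. In eWAT it ran from 3.06 to 6.38 CPM, with a median of 3.88 and a mean of 4.31 ± 1.39 (SD, n = 6). Again no library of another depot reached the eWAT range. The eWAT level was at least 21.0-fold that in iBAT (adjusted p = 8.16e-07), and 664 counts stood beside 4 in iWAT, a ratio of 186 (72.5 to 686, counting error only; adjusted p = 2.49e-05). Genes with 3 counts or fewer in every iBAT library made up 4.03% of all tested genes.

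Markers of mesothelium, the cell sheet over visceral organs, moved in part with Wt1 and Tcf21. Their summed level was 18.6 to 36.4 CPM in iBAT, 36.5 to 191.5 CPM in iWAT and 151 to 770 CPM in eWAT. Of the 12 markers 10 were higher in eWAT than in iBAT. Against iWAT 7 were higher in eWAT and 5 were not called, and 1 was higher in iBAT than in iWAT. The iWAT ko 3 sum of 191.5 CPM lay above eWAT wt 3 at 151 and eWAT ko 2 at 157 CPM. That iWAT library held 2 counts of Wt1 and 0 of Tcf21. Among these markers Upk3b (265 to 1474 counts in eWAT against 0 to 1 in every other library) and Upk1b (73 to 444 counts in eWAT, 0 to 6 in iWAT, 0 in iBAT) followed the depots as Wt1 and Tcf21 did. The highest mesothelial sum, 770 CPM, and the lowest eWAT level of Wt1, 5.05 CPM, were both in eWAT ko 3, the library with the highest epididymis sum. What part mesothelial cells had in the levels of these 2 genes was not tested.

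Zic1, a zinc finger factor used as a marker of classical brown fat, lies at chr9:91358058-91365810 on the minus strand. Its level in iBAT ran from 2.51 to 12.1 CPM with a median of 8.43, in iWAT from 0.130 to 0.464 CPM and in eWAT from 0.050 to 0.300 CPM. All 6 iBAT libraries were above all others, and iBAT ko 1 was the lowest of them. The mean in iBAT was 8.10 CPM ± 3.18 (SD, n = 6). In the fit, from which folds of single genes are given, Zic1 was 32.6-fold higher in iBAT than in iWAT (log2 difference 5.03 ± 0.45 SE, adjusted p = 1.08e-07) and 42.0-fold higher than in eWAT (5.39 ± 0.46, adjusted p = 4.54e-08). Since Zic1 passed the low-count filter through iBAT alone, these values describe where it was counted. Between iWAT and eWAT the log2 difference was 0.37 ± 0.44 (adjusted p = 0.653, 95% interval -0.50 to 1.24).

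Lhx8, a LIM homeobox factor also used as a brown fat marker, lies at chr3:154306294-154330659 on the minus strand. It ran from 0.940 to 5.75 CPM in iBAT (median 3.29) and from 3.38 to 7.08 CPM in iWAT (median 4.72), while the 6 eWAT libraries held 1 count in all. The iBAT and iWAT ranges overlapped, and neither reached eWAT. Set beside that single count, 316 counts in iBAT gave a ratio of 529 (95% interval 94.2 to 20943.6, counting error only; adjusted p = 1.12e-08) and 806 counts in iWAT a ratio of 718 (128 to 28386, adjusted p = 4.42e-07). Between iBAT and iWAT the log2 difference was -0.55 ± 0.37 (adjusted p = 0.220, 95% interval -1.28 to 0.17), with iBAT lower in 5 of 6 mice. Lhx8 was therefore not detectably higher in the brown depot than in the inguinal one.

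The 250 bases before the start of a gene were read from RefSeq (GRCm38.p6) for the 7 of the 10 genes that matched. They are shown for Zic1 and Lhx8, the brown fat markers, and for Shox2 and En1, which were highest in iWAT and move together below. Capitals mark TATAAA, the T-box site AGGTGTGA, the homeobox core TAATTA and the E-box CANNTG, each searched on both strands. The stretches of Zic1, Lhx8 and En1 run into these genes as positioned here, since RefSeq starts them further in. Motif positions are counted from the RefSeq start.
Zic1, chr9:91365769-91366018, minus strand: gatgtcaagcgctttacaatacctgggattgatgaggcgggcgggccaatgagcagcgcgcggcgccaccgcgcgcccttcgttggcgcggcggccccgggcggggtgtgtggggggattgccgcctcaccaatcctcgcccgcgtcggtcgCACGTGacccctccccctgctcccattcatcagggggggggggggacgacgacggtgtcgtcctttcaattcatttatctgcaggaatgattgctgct
Lhx8, chr3:154330561-154330810, minus strand: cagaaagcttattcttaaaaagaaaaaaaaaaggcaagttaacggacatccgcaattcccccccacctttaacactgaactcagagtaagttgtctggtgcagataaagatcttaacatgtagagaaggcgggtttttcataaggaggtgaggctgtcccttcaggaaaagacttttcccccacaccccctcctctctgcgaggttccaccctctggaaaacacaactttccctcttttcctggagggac
Shox2, chr3:66981772-66982021, minus strand: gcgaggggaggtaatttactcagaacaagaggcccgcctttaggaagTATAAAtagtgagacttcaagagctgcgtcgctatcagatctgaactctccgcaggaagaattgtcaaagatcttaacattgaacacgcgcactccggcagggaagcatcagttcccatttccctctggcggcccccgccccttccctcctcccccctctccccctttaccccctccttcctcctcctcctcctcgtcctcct
En1, chr1:120602237-120602486, plus strand: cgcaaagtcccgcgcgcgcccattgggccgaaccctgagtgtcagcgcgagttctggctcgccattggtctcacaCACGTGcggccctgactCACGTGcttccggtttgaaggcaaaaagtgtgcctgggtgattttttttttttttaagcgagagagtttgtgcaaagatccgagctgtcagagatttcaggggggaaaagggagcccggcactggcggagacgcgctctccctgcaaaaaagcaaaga

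The Zic1 stretch held 27 CG pairs and the En1 stretch 19, against a median of 6 over 32851 promoters of the same length, while the Lhx8 stretch held 4 and none of the motifs searched. The E-box CACGTG stood once before Zic1, from position -98 to -93, and at 2 places before En1, from -175 and from -158. The second of these overlapped the only TGANTCA match, TGACTCA from -163 to -157. An E-box of the form CANNTG was present in 66.2% of all promoters and TGANTCA in 6.75%. TATAAA stood before Shox2 from -203 to -198 and in 12.4% of promoters, and GGGCGG before Zic1 at 2 places and before Shox2 at 1, against 32.7% of promoters. These matches are letters in a window and were not tested as sites.

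Tbx15, a T-box factor of subcutaneous and brown fat progenitors, lies at chr3:99240381-99354259 on the plus strand. Its level ran from 15.2 to 28.3 CPM in iWAT (median 22.7), from 3.22 to 5.17 CPM in iBAT (median 3.63) and from 0.049 to 0.264 CPM in eWAT (median 0.111). The 3 depots did not overlap, and the order held in each of the 6 mice. Non-overlap was found for 34.6% of all tested genes between iBAT and iWAT, 37.3% between iBAT and eWAT and 4.62% between iWAT and eWAT. The mean was 21.8 CPM ± 5.28 (SD, n = 6) in iWAT, and the fitted level there was 148-fold that in eWAT (log2 difference 7.21 ± 0.37 SE, adjusted p = 1.02e-08). In iBAT, with a mean of 3.89 ± 0.779 CPM, the fitted level was 5.59-fold lower than in iWAT (-2.48 ± 0.28, adjusted p = 1.58e-06) and 26.4-fold higher than in eWAT (4.72 ± 0.35, adjusted p = 8.16e-09). The eWAT level behind these folds rested on 1 to 9 counts per library.

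Shox2, a short stature homeobox factor of the proximal limb, lies at chr3:66971727-66981771 on the minus strand. In iWAT it ran from 9.07 to 31.3 CPM (median 22), in iBAT from 0.619 to 6.81 CPM (median 3.75) and in eWAT from 0.297 to 0.938 CPM (median 0.781). The iWAT libraries were above all others, while iBAT wt 1 fell inside the eWAT range. Shox2 was 6.01-fold lower in iBAT than in iWAT (log2 difference -2.59 ± 0.43 SE, adjusted p = 8.24e-05), 4.86-fold higher in iBAT than in eWAT (2.28 ± 0.44, adjusted p = 3.63e-04) and 29.2-fold higher in iWAT than in eWAT (4.87 ± 0.48, adjusted p = 9.16e-06). Among wild type libraries alone the difference between iBAT and eWAT did not pass the test (adjusted p = 0.0829).

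En1, the homeobox factor Engrailed 1, lies at chr1:120602418-120607992 on the plus strand. It ran from 1.87 to 5.07 CPM in iWAT (median 4.10), from 0.902 to 2.07 CPM in iBAT (median 1.38) and from 0 to 0.346 CPM in eWAT (median 0.097). Both other depots lay above eWAT without overlap. In all 6 mice iWAT was above iBAT, although iWAT ko 3, at 1.87 CPM, fell below the highest iBAT library. En1 was 2.74-fold lower in iBAT than in iWAT (log2 difference -1.45 ± 0.37 SE, adjusted p = 0.00358), and above eWAT by 10.6-fold in iBAT (3.41 ± 0.44, adjusted p = 5.22e-06) and 29.1-fold in iWAT (4.86 ± 0.45, adjusted p = 6.61e-06). Its order across depots, with iWAT first and brown fat second, was that of Tbx15 and Shox2.

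Most markers of nerve and Schwann cells, the glia that wrap peripheral axons, moved with Tbx15, Shox2 and En1. Their summed level was 215 to 312 CPM in iBAT, 256 to 640 CPM in iWAT and 23.9 to 46.3 CPM in eWAT. Of the 7 of 8 markers tested, 7 were higher in iWAT than in eWAT and 6 were higher in iBAT than in eWAT. Between iBAT and iWAT 6 were lower in iBAT, and 1 was higher, unlike Tbx15, Shox2 and En1. Sox10, the defining factor of these cells, was counted 39 to 117 times in iBAT, 227 to 360 times in iWAT and 2 to 52 times in eWAT, and Th, of sympathetic neurons, 0 to 2 times in any library. Adipose progenitor markers also differed, with sums of 643 to 973 CPM in iBAT, 3271 to 10132 CPM in iWAT and 1379 to 2959 CPM in eWAT. The part of these cells in the levels of Tbx15, Shox2 and En1 was not tested.

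**Figure D2:**
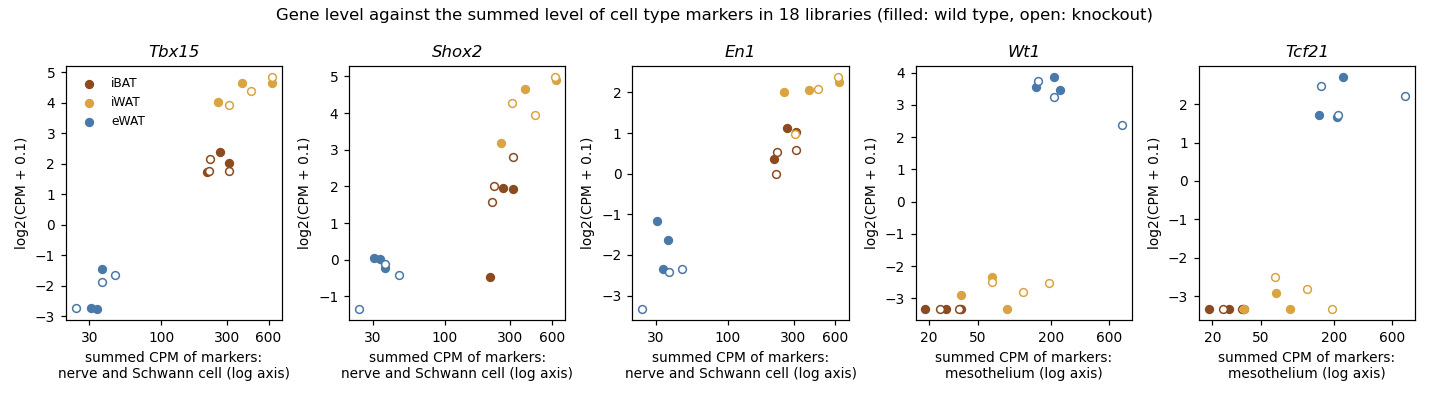
Each point is 1 library (filled wild type, open knockout), with the summed CPM of a cell type's markers on a log axis and log2(CPM + 0.1) of a gene on the vertical axis, coloured by tissue. Tbx15, Shox2 and En1 rise with the nerve and Schwann cell sum across tissues, and Wt1 and Tcf21 leave the low end only in eWAT, where the mesothelial sum is 151 to 770 CPM.

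Tbx18, a T-box factor of mesenchyme that is closely related to Tbx15, lies at chr9:87702800-87731260 on the minus strand. Its levels ran from 2.58 to 6.14 CPM in iBAT (median 3.83), from 4.56 to 9.61 CPM in iWAT (median 7.14) and from 2.23 to 6.42 CPM in eWAT (median 5.27). All 3 ranges overlapped. Tbx18 was 1.73-fold lower in iBAT than in iWAT (log2 difference -0.79 ± 0.25 SE, adjusted p = 0.0128), and lower in 6 of 6 mice, though wild type libraries alone did not pass the test (adjusted p = 0.121). Against eWAT it did not pass the adjusted test in either depot. The difference was -0.25 ± 0.25 for iBAT (adjusted p = 0.409, 95% interval -0.73 to 0.23). For iWAT it was 0.54 ± 0.24 (adjusted p = 0.178, unadjusted p = 0.0425 in edgeR), with a 95% interval of 0.058 to 1.02 that lay above 0.

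The balance of the 2 T-box factors within a library does not depend on library scaling. Per kb of exon, Tbx15 stood to Tbx18 in iBAT at 1.06, 1.30 and 1.06 in the wild type mice and 1.60, 0.908 and 1.48 in the knockout mice. In iWAT of the same mice the ratios were 5.78, 3.85 and 3.03 and then 7.82, 3.44 and 1.99. Every iWAT ratio was above every iBAT ratio. The geometric means were 1.21 and 3.92, a log2 difference of -1.70 (two-sided exact permutation test, p = 0.00216, the smallest that 6 against 6 allows; 0.00433 adjusted over the 2 ratio comparisons that could be made). Ratios against eWAT were not tested, since Tbx15 fell to 3 counts or fewer in libraries of that depot.

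**Figure D3:**
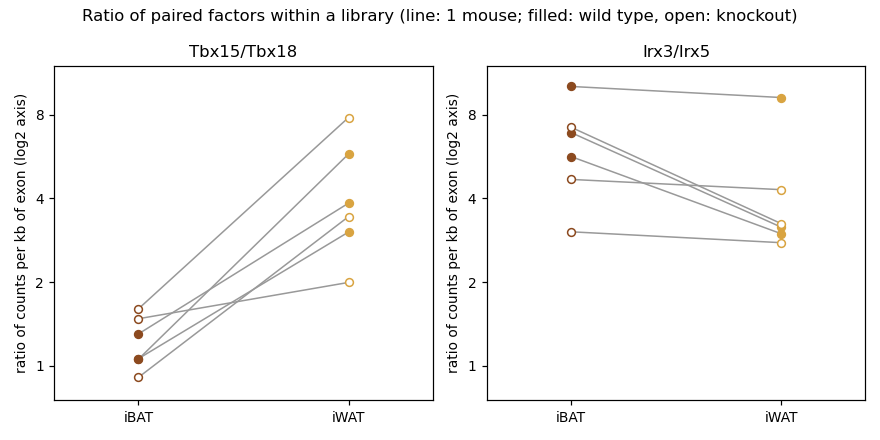
The vertical axis (log2 spacing) gives the ratio of 2 related factors within a library, per kb of exon, and each line joins the iBAT and iWAT libraries of 1 mouse (filled wild type, open knockout). The Tbx15 to Tbx18 ratio is higher in iWAT in 6 of 6 mice without overlap, while the Irx3 to Irx5 ratio is lower in iWAT in 6 of 6 mice with overlapping ranges.

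Irx3 and Irx5 are Iroquois homeobox factors, encoded on chromosome 8 in the neighbourhood of Fto (Irx3 at chr8:91798525-91802067 on the minus strand and Irx5 at chr8:92357625-92376286 on the plus strand), and are known from work on obesity-linked variation at that locus. Irx3 ran from 6.84 to 9.05 CPM in iBAT (median 8.31), from 3.44 to 8.80 CPM in iWAT (median 4.15) and from 2.67 to 8.15 CPM in eWAT (median 4.67). Its iBAT libraries were the most even of all, with a coefficient of variation of 9.91%, and overlapped with the highest libraries of both white depots. Irx3 was 1.63-fold higher in iBAT than in iWAT (log2 difference 0.71 ± 0.28 SE, adjusted p = 0.0439) and 1.62-fold higher than in eWAT (0.70 ± 0.28, adjusted p = 0.0454), with signs that turned to -0.11 and -0.14 under library totals without TMM. That scaling moved the median of all tested genes from -0.14 to -0.95 and from -0.17 to -1.04, so Irx3 stayed above the median gene. Each call was lost in 12 of 18 fits that left out 1 library, with adjusted p of up to 0.102 and 0.104, and without the 4 libraries with neighbouring tissue (adjusted p = 0.148 and 0.101). Both were also lost with no filter on low counts (adjusted p = 0.0965 and 0.0993), and that against eWAT in wild type libraries alone (0.171). Of the fits without 1 library, the call against iWAT held only without iBAT ko 2, iWAT ko 3, or eWAT wt 1, ko 1, wt 3 or ko 3, and that against eWAT only without iWAT wt 1, wt 2, wt 3 or ko 3, or eWAT ko 2 or wt 3.

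Irx5 was the lower of the pair. It ran from 0.990 to 3.22 CPM in iBAT (median 1.47), from 0.422 to 3.595 CPM in iWAT (median 1.48) and from 0 to 0.849 CPM in eWAT (median 0.247). The iBAT libraries lay above all eWAT libraries, and iWAT exceeded eWAT in 6 of 6 mice with overlap. Irx5 was 5.50-fold higher in iBAT than in eWAT (log2 difference 2.46 ± 0.58 SE, adjusted p = 0.00194) and 5.21-fold higher in iWAT than in eWAT (2.38 ± 0.58, adjusted p = 0.0162), the second of which did not pass with iWAT and eWAT fitted alone (adjusted p = 0.0706) or in wild type libraries (0.119). Between iBAT and iWAT the difference was 0.08 ± 0.53 (adjusted p = 0.914, 95% interval -0.97 to 1.12).

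Per kb of exon, Irx3 exceeded Irx5 in every iBAT and iWAT library. The ratio in iBAT was 10.1, 6.91 and 5.66 in the wild type mice and 7.22, 4.68 and 3.03 in the knockout mice, and in iWAT 9.23, 3.15 and 2.99 and then 3.25, 4.30 and 2.77. In each mouse the iBAT ratio was the higher of the pair, although the ranges overlapped. The geometric means of 5.86 and 3.87 differed by 0.60 on the log2 scale (two-sided exact permutation test, p = 0.128, adjusted p = 0.128). With the libraries of a mouse paired, the same difference of 0.60 gave an exact sign-flip p of 0.03125, the smallest that 6 pairs allow. Without iWAT wt 1, whose ratio of 9.23 was the highest of its depot, the unpaired difference was 0.85 (exact permutation test, p = 0.0173). Without the 4 libraries with neighbouring tissue it was 0.44 (exact permutation test, p = 0.405), and over fits leaving out 1 library the exact permutation p reached 0.251.

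The genotype comparison asked whether loss of Gm15551 changed these factors. With edgeR, 0 of the 10 genes passed the adjusted test across tissues, in any 1 tissue, or in the test of whether the genotype difference varied between tissues. Over all genes 0.00534% passed across tissues, 0% in iBAT, 0% in iWAT, 0.00534% in eWAT and 0% in the interaction. Across tissues the log2 differences, knockout minus wild type, ran from -0.62 ± 0.32 SE for En1 (unadjusted p = 0.0699 in edgeR) to 0.75 ± 0.45 for Irx5 (unadjusted p = 0.118), all with adjusted p above 0.99. At an unadjusted p under 0.05 there was 1 gene of the 10 in 1 tissue, En1 in eWAT (log2 difference -1.65 ± 0.65, unadjusted p = 0.0240 and adjusted p = 1 in edgeR), beside 4.35% of all genes in eWAT, 1.27% in iBAT, 2.22% in iWAT and 2.19% across tissues. It rested on 5, 2 and 7 counts in the wild type libraries and 2, 4 and 0 in the knockout libraries, which overlap.

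Zic1 in iBAT was 12.1, 7.65 and 7.69 CPM in wild type and 2.51, 9.17 and 9.53 CPM in knockout mice. Lhx8 in iBAT was 4.64, 3.24 and 5.75 CPM in wild type and 0.940, 2.86 and 3.35 CPM in knockout mice (log2 difference -0.93 ± 0.51 SE, unadjusted p = 0.0916 in edgeR). The library iBAT ko 1 was the lowest of the 6 for both genes and the highest for Shox2, at 6.81 CPM. Tbx15 in iWAT was 25.2, 24.9 and 16.3 CPM in wild type and 28.3, 20.6 and 15.2 CPM in knockout mice. Wt1 in eWAT was 11.04, 14.4 and 11.7 CPM in wild type and 9.31, 13.4 and 5.05 CPM in knockout mice. In each of these examples the genotypes overlapped. The 3 libraries of one genotype lay clear of the other for 0 of the 10 genes in iBAT, 1 in iWAT (Irx3) and 1 in eWAT (Tbx18), beside 4.94%, 4.92% and 5.25% of all tested genes. Irx3 in iWAT was 3.44, 4.04 and 4.09 CPM in wild type and 4.21, 5.69 and 8.80 CPM in knockout mice (log2 difference 0.69 ± 0.37, adjusted p = 1 in edgeR). Tbx18 in eWAT was 5.58, 5.48 and 6.42 CPM in wild type and 5.06, 4.75 and 2.23 CPM in knockout mice (-0.53 ± 0.35, adjusted p = 1 in edgeR).

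**Figure D4:**
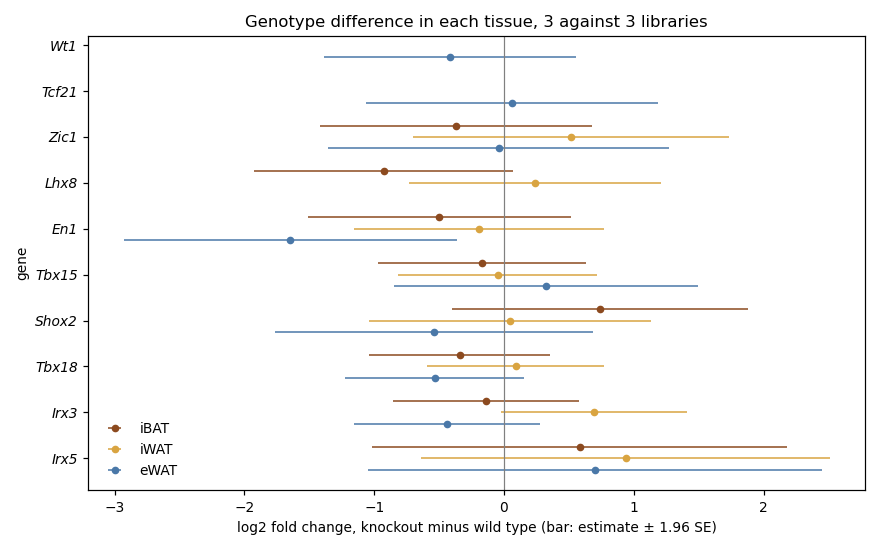
Points give the log2 difference, knockout minus wild type, of each gene in each tissue (3 against 3 libraries), and bars give the 95% interval. Groups with at most 3 counts in every library are left out. The bar of En1 in eWAT is the 1 clear of 0 (estimate -1.65), and no difference passed the adjusted test.

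Across the 18 libraries the 10 genes fell into sets with a like order of depots. The Pearson correlation of log2(CPM + 0.1) was 0.964 between Tbx15 and En1, 0.914 between Tbx15 and Shox2, 0.935 between Tbx15 and Lhx8 and 0.987 between Wt1 and Tcf21. These points share depots and mice, and the values describe the libraries only. Within the 6 libraries of a depot the values were others. Wt1 with Tcf21 gave -0.12 in eWAT. Tbx15 gave -0.13 with Lhx8, 0.78 with En1 and 0.78 with Shox2 in iWAT, and 0.53, 0.73 and 0.34 in iBAT. Among the tested genes most like Wt1 was the mesothelial gene Upk3b (0.991), and among those most like Tcf21 was Gdpd2 (0.985). Those most like Lhx8 were AI606473 (0.983) and Vat1l (0.972), those most like Zic1 Gm32468 (0.978) and Gm47818 (0.972), and among those most like Tbx15 were En1 and Cldn19 (0.959). For Shox2 the first was Prx (0.959), a gene of myelinating Schwann cells. The likeness was weaker for Tbx18 (Tap2, 0.893), Irx3 (Ehhadh, 0.865) and Irx5 (Lin9, 0.894).

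Beside Lhx8, Zic1, Wt1 and Tbx15 lay transcripts counted mainly in the same depots. AI606473, a processed transcript that begins 162 bp beyond Lhx8 on the opposite strand, was counted 57, 26 and 28 times in wild type and 7, 20 and 16 times in knockout iBAT, 29 to 67 times in iWAT and 0 to 2 times in eWAT. It differed from eWAT in iBAT (edgeR, adjusted p = 2.56e-07) and in iWAT (adjusted p = 8.37e-06). As for Lhx8 itself, iBAT ko 1 was its lowest iBAT library. The Lhx8 stretch printed above ends just before the annotated start of AI606473, and its other end lies inside Lhx8 as positioned here, since RefSeq starts the gene further in.

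Zic4, a related zinc finger gene that overlaps Zic1 on the opposite strand, was counted 8 to 38 times in iBAT, 0 to 1 times in iWAT and 0 to 2 times in eWAT (adjusted p = 2.23e-06 and 1.33e-05 in edgeR). Wt1os, annotated as antisense and starting 19 bp before Wt1, was counted 10 to 37 times in eWAT and 0 to 2 times in either other depot (adjusted p = 2.27e-04 against iBAT and 2.81e-04 against iWAT). AI606473, Zic4 and Wt1os passed the low-count filter only through the depots where they were high, so their p-values describe where they were counted. Gm43120, antisense within Tbx15, had 6 to 21 counts in iWAT, 0 to 1 in iBAT and 0 in eWAT. The nearest protein-coding gene to Tbx15, Wars2 at 1195 bp, went the other way, higher in iBAT than in iWAT (log2 difference 0.71 ± 0.15 SE, adjusted p = 7.51e-04), though -0.12 under library totals without TMM. The strand setting of the counting was not given in the sources used here, so reads of overlapping and antisense genes cannot be told apart. Crnde, a noncoding gene 1505 bp before Irx5, was counted 23 to 40 times in iBAT, against 12 to 53 in iWAT and 2 to 22 in eWAT, and was higher in iBAT than in eWAT (log2 difference 2.17 ± 0.43 SE, adjusted p = 3.92e-04). Crnde was also called between iBAT and iWAT (1.19 ± 0.41, adjusted p = 0.0209), where Irx5 was not, and the call was lost on leaving out iWAT wt 1, wt 2 or wt 3. Within 500000 bp of the 10 genes lay 174 others, of which 51 were tested. Of these 14 were higher and 19 lower in iBAT than in iWAT, 14 and 18 in iBAT than in eWAT, and 6 and 4 in iWAT than in eWAT. Over all tested genes 54.3%, 54.6% and 10.2% were called in these contrasts, and nothing particular to the neighbours is read from their counts.

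**Figure D5:**
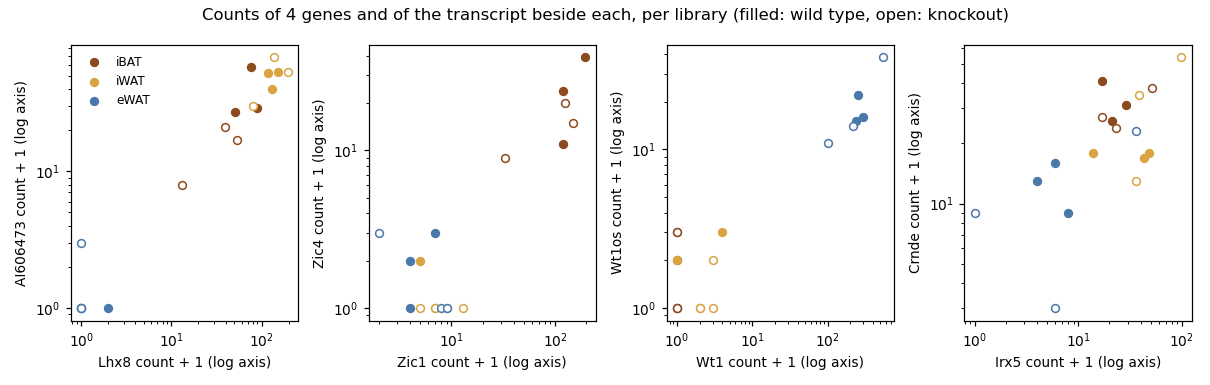
Each point is 1 library (filled wild type, open knockout), with the count of a gene plus 1 on the horizontal log axis and that of the transcript beside it on the vertical log axis, coloured by tissue. AI606473 and Lhx8 are counted in iBAT and iWAT and at 0 to 2 in eWAT, Zic4 with Zic1 in iBAT, and Wt1os with Wt1 in eWAT.

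The wider families are given by counts, to be read beside the 54.3%, 54.6% and 10.2% of all tested genes called in iBAT against iWAT, iBAT against eWAT and iWAT against eWAT. Of 15 other T-box genes 8 were tested, and 1 was higher and 3 were lower in iBAT than in iWAT, 3 and 3 in iBAT than in eWAT, and 4 and 0 in iWAT than in eWAT. These counts include Tbx21 and Eomes, T-box genes of lymphocytes, both lower in iBAT than in iWAT and higher in iWAT than in eWAT, as were 12 of 12 lymph node markers, whose part was not tested. In iWAT against eWAT the call of Eomes was lost in 6 of 18 fits that left out 1 library, and that of Tbx1 in 7. For iBAT against eWAT such losses numbered 5 of 18 for Tbx6, 3 for Tbx21 and 1 for Tbx2. Tbx5, a T-box gene of heart and forelimb, fell from 10.7 CPM ± 4.03 (SD, n = 6) in iBAT to 3.26 ± 1.49 in iWAT and 0.291 ± 0.175 in eWAT (log2 differences 1.77 ± 0.37 SE and 5.21 ± 0.45 for iBAT, adjusted p = 7.73e-04 and 4.83e-08). Tbx1 went another way, with at most 2 counts in any iBAT library, 41 to 297 in iWAT and 7 to 135 in eWAT (adjusted p = 7.41e-06 and 3.13e-04 for iBAT). Of the 4 tested among 11 other LIM homeobox genes, Lmx1a was highest in iWAT, with 6 to 32 counts against 0 to 1 in iBAT and 0 to 5 in eWAT. Isl1 was highest in eWAT, with 2 to 65 counts against 0 in iBAT and 0 to 3 in iWAT. The list counts were 0 higher and 3 lower in iBAT than in iWAT, 1 and 2 than in eWAT, and 2 higher and 1 lower in iWAT than in eWAT. The 1 higher in iBAT than in eWAT was Lmx1b, a call lost in 7 of 18 fits that left out 1 library.

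En2, the second Engrailed gene, unlike En1 was highest in iBAT, at 1.62 CPM ± 0.529 (SD, n = 6), against 0.209 ± 0.212 in iWAT (log2 difference 2.92 ± 0.59 SE, adjusted p = 5.75e-04) and 0.101 ± 0.067 in eWAT (3.93 ± 0.65, adjusted p = 7.13e-05). It belonged to a list of 19 somite and dermomyotome regulators, of which 11 were tested and 3 were higher and 6 lower in iBAT than in iWAT, 3 and 5 in iBAT than in eWAT, and 0 and 3 in iWAT than in eWAT. Of the last 3, Foxc2 was lost in 16 of 18 fits that left out 1 library and Eya2 in 8, while Foxc1 held in all of them. Of the 8 twist-related genes tested among 11, 1 was higher and 4 were lower in iBAT than in iWAT, 0 and 2 than in eWAT, and 1 and 2 in iWAT against eWAT. Both genes lower in iWAT there were mostly lost on leaving out 1 library, Hand2 in 16 of 18 fits and Tcf23 in 14. Twist2, which restrains mesenchymal differentiation, was at 1.76 CPM ± 1.07 in iBAT and 10.8 ± 3.22 in iWAT (log2 difference -2.61 ± 0.38, adjusted p = 2.58e-05). Irx1 and Irx2, the 2 tested of 4 other Iroquois genes, were both lower in the brown depot than in iWAT (edgeR, adjusted p = 0.00914 and 0.0108).

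Of 30 limb and lateral plate regulators 22 were tested, and 0 were higher and 15 lower in iBAT than in iWAT, 0 and 16 in iBAT than in eWAT, and 3 and 9 in iWAT than in eWAT. Their median log2 differences were -1.61, -1.88 and -0.23, or -1.51, -1.63 and -0.23 with genes of at most 3 counts in a depot at their bound, against -0.14, -0.17 and 0.01 over all tested genes. Prrx1, of limb mesenchyme, was at 59.2 CPM ± 19.4 (SD, n = 6) in iWAT and 6.44 ± 1.04 in iBAT (log2 difference -3.20 ± 0.27 SE, adjusted p = 6.34e-08). Osr1, of lateral plate mesoderm, rose from 1.55 ± 0.420 CPM in iBAT to 15.1 ± 4.25 in iWAT and 28.1 ± 11.3 in eWAT. Alx1 and Bnc1, the latter a zinc finger gene of mesothelium and other epithelia, were counted 22 to 104 and 17 to 108 times in eWAT and 0 to 2 times in every iBAT and iWAT library, the same depot pattern as Wt1 and Tcf21. Markers of other cells moved in the same direction: 10 of 12 adipose progenitor markers were lower in iBAT than in iWAT and 8 of 12 than in eWAT, and of 12 mesothelial markers 8 and 10. Their part in these counts was not tested. No gene of any of these lists passed the adjusted genotype test.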

How the data were processed

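Libraries of polyadenylated RNA from 18 samples (3 tissues of 3 wild type and 3 knockout mice) were analysed as 6 groups of 3. The authors' table holds estimated counts per gene from Salmon, deposited as whole numbers. The paper names GENCODE M22 annotation or the same combined with RNAcentral; which one, the strand setting and the transcript-to-gene step are not given in the sources used here. The submitters' processing notes also name bcl2fastq, cutadapt and DESeq2, without versions. The estimated counts as deposited were used with no further rounding, and no sample column was left unlisted. Total counts were 14997901 to 34389586 per library, and intervals from counts cover counting error only.

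Genes were filtered by group with filterByExpr (18728 of 54347 kept), scaled by TMM (factors 0.617 to 0.744 in iBAT, 1.06 to 1.44 in iWAT, 1.15 to 1.39 in eWAT) and tested with edgeR 4.0.16 (quasi-likelihood F-test, R 4.3.3). Tissue and genotype entered as covariates for tissue contrasts and for genotype across tissues, and 1 mean per group was used for genotype within a tissue and the interaction. P-values were adjusted by Benjamini-Hochberg over all tested genes, with a threshold of 0.05. Ratios of 2 factors were compared by exact permutation (Python 3.11.15, scipy 1.17.1). Ratios were tested only where both genes held more than 3 counts in every library compared.

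Mouse identifiers in the labels pair the tissues: same genotype and number was the same mouse. Deviations from the group mean correlated at a median of 0.0573 (-0.165 to 0.326) between tissues of 1 mouse. Alternatives were DESeq2 size factors, DESeq2 1.42.0, limma voom (3.58.1), no filter, wild type libraries only, only the tissues compared, a replicate block, leaving out each library, and leaving out 4 libraries with neighbouring tissue. Library totals without TMM were added after the data were seen. The scripts were tested on simulated data.

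The 10 genes and all gene and marker lists were chosen with earlier results of these data known. Further genes were named by rule: the 3 most correlated with each of the 10 over log2(CPM + 0.1), genes within 500000 bp that passed a tissue test, and the 4 with the smallest adjusted p per list, contrast and direction, from which the text gives examples. Some genes that this rule names are not reported here. Positions and exon lengths come from GENCODE M21 on GRCm38, which held 54094 of the row identifiers. Promoters come from RefSeq (GRCm38.p6; 7 of 10 genes matched). The protein comparison planned for the related pairs was not made here. The main fits for tissue contrasts and for genotype across tissues held no term for the mouse. Their p-values take the libraries of a mouse as independent and measure the spread between libraries, from 3 mice per genotype. The unpaired permutation tests of ratios also leave out which libraries came from the same mouse.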

Additional observations from a re-analysis of the deposited data

Results flagged for a closer look

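In 25 sets of 6 libraries (each of the genes in each tissue where it was counted), the gap of the highest or lowest library to its neighbour was set against the range of the set. In 4 sets this share exceeded Dixon's 95% critical value for 6 libraries, where chance at 1 in 20 sets gives 1.25. En1 in iWAT was lowest in iWAT ko 3, at 1.87 CPM, a share of 0.643. Irx5 was highest in iBAT ko 3 at 3.22 CPM (0.632), in iWAT ko 3 at 3.595 CPM (0.645), and in eWAT ko 2 at 0.849 CPM (0.638). The first and second of these Irx5 libraries came from the same mouse, whose iWAT library also held the highest iWAT level of Irx3, 8.80 CPM.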

How the results depend on the processing

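Of 23 calls of the 10 genes between tissues, 17 held under every alternative run, and among these genes leaving out 1 library changed calls of Irx3 only. The counts of genes called moved between 5 and 8 (iBAT against iWAT), 7 and 9 (iBAT against eWAT) and 6 and 7 (iWAT against eWAT). Of 94 calls of other named genes, 60 held throughout. With a replicate block for the mouse, 0 calls of the 10 genes and 6 of the other named genes were lost (Hand2 in 2 contrasts, Eomes, Eya2, Foxc2 and Irx1), the log2 ratio of Irx3 to Irx5 stayed at 0.60 but passed the test, and Irx3 in iWAT against eWAT moved from -0.01 to 0.0081. Between genotypes, libraries of the same replicate number correlated at -0.465 to 0.551, over 0.1 in 4 of 9 pairs. With so few libraries, some holding neighbouring tissue, this cannot decide whether the numbers pair wild type with knockout mice. A block on the number called none of the 10 genes. In wild type libraries only, Lhx8 in iBAT against iWAT turned to 0.034, and the log2 ratio of Tbx15 to Tbx18 was -1.84 with an exact permutation p of 0.1, the smallest that 3 against 3 allows. Calls over all genes fell there from 10164 to 6595, 10220 to 6574 and 1911 to 247, and to 854 with iWAT and eWAT fitted alone. Under library totals without TMM, calls split 1438 higher to 12804 lower in iBAT against iWAT, in place of 4490 to 5674, and 1579 to 13159 in iBAT against eWAT, in place of 4565 to 5655. The turned values were -0.11 (Irx3), -0.72 (Irx5), -0.12 (Wars2) and -0.45 (Fto) in iBAT against iWAT, and -0.14 (Irx3) and -0.058 (Ebf2) in iBAT against eWAT, and Lhx8 and Tcf21 in iBAT against iWAT and Tbx18 in iBAT against eWAT came to pass the test. Without the 4 libraries with neighbouring tissue, Irx5 in iBAT against iWAT was -0.057, Zic1 in iWAT against eWAT -0.41 and Tcf21 across genotypes -0.038. Leaving out 1 library moved differences near 0 through 0: Irx5 in iBAT against iWAT from -0.11 to 0.34, Irx3 in iWAT against eWAT from -0.24 to 0.18, and, across genotypes, Tbx15 from -0.12 to 0.064, Zic1 from -0.19 to 0.17, Wt1 from -0.37 to 0.041, Shox2 from -0.074 to 0.22 and Irx3 from -0.10 to 0.16. The log2 ratio of Irx3 to Irx5 ran from 0.44 to 0.85 in these fits. The causes were not tested. Counts of 3 or fewer limited Wt1 and Tcf21 outside eWAT and, in eWAT, Lhx8 in all libraries, Tbx15, Zic1 and En1 in 3 of 6 and Irx5 in 2 of 6.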

Other observations

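In eWAT the Irx3 to Irx5 ratio per kb of exon was not tested, since Irx5 held 0 counts in 1 library and 3 to 7 counts in 4 others. In the 5 libraries with counts it was 12.8, 45.7 and 37.4 in the wild type mice, and 9.06 and 12.2 in the knockout mice.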
